A study of Mus musculus with 16 samples.

Results

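The mitochondrial ribosomal protein genes were taken as all genes whose symbol is Mrpl or Mrps followed by a number, with or without 1 further letter, and that reached at least 1 CPM (the counts of a gene scaled to the library total) in 4 or more of 16 libraries. Of 55359 genes in the files, 78 carried such a symbol and 77 met the CPM rule. The one left out was Mrpl53, with 0 counts over all 16 libraries, a level that 3 counts would place at 0.00275 CPM. In the GENCODE M21 annotation 88.0% of its exon bases are shared on the same strand with the gene Gm42688, which stood between 0.83 and 2.06 CPM, and how reads in such overlaps were counted is not given in the sources used here. Of the 77 genes, 26 code for proteins of the small subunit and 50 for proteins of the large subunit, among them Mrps30 and Mrps18a, whose products sit in the large subunit despite their names. Mrps36 fits the symbol pattern too, but its product has since been described as a subunit of the alpha-ketoglutarate dehydrogenase complex, and it was kept apart.

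All libraries came from MPI-2 cells, a wild-type mouse line of alveolar-like macrophages that is grown in GM-CSF. Cultures either met *Mycobacterium abscessus*, a fast-growing species of nontuberculous mycobacteria able to live within macrophages, or stayed uninfected, and polyadenylated RNA was sequenced at day 1 and day 5, with 4 biological replicates in each of the 4 groups. By its title, the series belongs to work on senescence in chronic infection of cells. The bacterial strain and dose, and how many cells took up bacteria, are not stated in the labels, and all replicates, labelled as biological, are of 1 cell line, so p-values measure the spread between cultures of that line.

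Mitochondrial ribosomes translate the few messenger RNAs of the mitochondrial genome, all of them for membrane subunits of the respiratory chain and the ATP synthase. Every protein of these ribosomes is coded in the nucleus, made in the cytosol and imported, where it meets ribosomal RNA transcribed from mitochondrial DNA. Some of the proteins descend from bacterial ribosomal proteins (46 of the 77 genes here), and others were added in the mitochondrial lineage (30 genes). In macrophages the respiratory chain they supply is one side of the balance between respiration and glycolysis, which shifts during activation by bacteria.

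Upstream sequences of genes at both ends of the day 5 response are shown first, since these genes differ most in direction. They are 150 bases before the annotated start, 5′ to 3′ on the gene's own strand, from RefSeq on GRCm38.p6, which is not the build of the counts. The 4 lower and 4 higher genes were taken by the size of their log2 fold change at day 5 among called genes with 1 listed start and no opposite start within the bases shown. Capitals mark exact matches, on either strand, to 5 motifs: the NRF1 core GCATGCGC, the ETS site CCGGAAG that GABP binds, the YY1 site AAGATGG, the E-box CACGTG and the GC box GGGCGG. The first 4 genes fell at day 5 and the last 4 rose.
Mrpl18 (chr17:12916092-12916241, minus strand): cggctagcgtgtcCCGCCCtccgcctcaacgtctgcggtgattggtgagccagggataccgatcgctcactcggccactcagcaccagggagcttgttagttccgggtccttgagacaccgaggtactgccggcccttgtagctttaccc
Mrps25 (chr6:92184024-92184173, minus strand): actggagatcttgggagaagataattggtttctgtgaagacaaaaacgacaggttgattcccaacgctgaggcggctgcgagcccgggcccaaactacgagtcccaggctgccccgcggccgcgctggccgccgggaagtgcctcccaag
Mrpl16 (chr19:11770265-11770414, plus strand): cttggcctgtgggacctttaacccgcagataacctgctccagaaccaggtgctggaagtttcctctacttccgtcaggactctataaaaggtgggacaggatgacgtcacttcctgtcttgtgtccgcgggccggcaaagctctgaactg
Mrpl51 (chr6:125192050-125192199, plus strand): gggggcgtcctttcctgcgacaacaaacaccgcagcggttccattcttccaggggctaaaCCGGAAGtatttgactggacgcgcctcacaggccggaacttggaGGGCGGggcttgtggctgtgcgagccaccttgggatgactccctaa
Mrpl52 (chr14:54426759-54426908, plus strand): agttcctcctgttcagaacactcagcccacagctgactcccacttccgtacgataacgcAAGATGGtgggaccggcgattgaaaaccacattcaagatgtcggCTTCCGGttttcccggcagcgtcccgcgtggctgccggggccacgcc
Mrpl1 (chr5:96209965-96210114, plus strand): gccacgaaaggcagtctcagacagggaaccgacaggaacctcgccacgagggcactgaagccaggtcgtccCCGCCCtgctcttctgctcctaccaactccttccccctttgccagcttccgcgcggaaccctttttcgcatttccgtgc
Mrpl39 (chr16:84735245-84735394, minus strand): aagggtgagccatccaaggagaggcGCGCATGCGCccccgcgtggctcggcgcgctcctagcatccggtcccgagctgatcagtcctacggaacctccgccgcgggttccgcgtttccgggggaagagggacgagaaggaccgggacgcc
Mrpl32 (chr13:14613038-14613187, minus strand): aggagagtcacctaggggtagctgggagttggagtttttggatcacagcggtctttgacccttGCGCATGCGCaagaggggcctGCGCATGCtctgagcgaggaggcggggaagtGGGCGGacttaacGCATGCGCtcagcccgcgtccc

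Mrpl39 and Mrpl32, which both rose, hold NRF1 cores in these bases, in Mrpl32 at several places. The Mrpl51 stretch, of a gene that fell, and the Mrpl52 stretch, of a gene that rose, both hold an ETS site. Mrps25 and Mrpl16 hold none of the 5 motifs in the bases shown. Over windows from 250 bases before to 50 bases after the start, which RefSeq gave for 68 of the 77 genes, the ETS site was found in 36.8% of members, against 9.93% of 27025 genes with a window and 19.0% of 11067 tested genes with a window. The NRF1 core was found in 11.8%, 3.05% and 5.52% of the same sets, and the YY1 site in 19.1%, 7.28% and 8.48%. The GC box stood in 50.0% of member windows, 38.2% of all windows and 64.1% of windows of tested genes, and the E-box in 7.35%, 8.09% and 11.1%. Of the windows of genes lower at day 5, 13 of 32 held the ETS site, as did 2 of 8 windows of genes higher at day 5 and 10 of 28 of the genes not called. The NRF1 core was held by 4 of the 32, 2 of the 8 and 2 of the 28 windows. A match describes letters only and is not evidence of binding.

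Library totals lay between 46154875 and 81995629 counts. Values below are CPM after scaling by the trimmed mean of M-values (TMM). A gene is called higher or lower where edgeR's quasi-likelihood test over 17190 genes gave a Benjamini-Hochberg adjusted p under 0.05. In the exposure comparisons, rose and fell stand for called higher and called lower in exposed against uninfected cells of the same day.

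The labelled cell type was checked on markers. All 8 macrophage markers and all 8 alveolar macrophage markers averaged at least 1 CPM in every group, with Siglecf lowest among the alveolar ones. The macrophage list summed to 3797 to 4243 CPM in uninfected and 7635 to 13070 CPM in exposed day 5 libraries, a difference that lay mainly in Lyz2 (means of 2260 and 7900 CPM), and 6 of the 8 genes were called higher at day 5 and 1, Spi1, lower (-0.53). The alveolar list summed to 17710 to 25180 and 7376 to 9549 CPM, a difference that lay mainly in Chil3 (means of 16100 and 2990 CPM). In that list 4 genes were called lower at day 5 (Chil3, Ear1, Ear2 and Pparg), Itgax (2.27) and Car4 (0.29) were called higher, and Marco and Siglecf were not called. Of the epithelial list, Epcam, Sftpc, Krt8 and Krt18 averaged at most 0.0332 CPM in every group, while in uninfected day 5 cells Cdh1 averaged 71.2 CPM, Krt19 4.14 CPM and Scgb1a1 2.92 CPM, and all 3 were called lower in exposed cells (-1.98, -1.96 and -2.01). In the fibroblast list Pdgfra averaged 20.8 and 11.2 CPM and Col1a1 at most 0.542 CPM in any group, both called lower at day 5, and the other 3 genes at most 0.194 CPM. The endothelial list summed to 2.88 to 3.34 CPM in uninfected and 6.11 to 9.13 CPM in exposed day 5 libraries, with Cdh5 (3.02) and Pecam1 (0.68) called higher. The T cell list summed to at most 0.0766 CPM and the B cell list to at most 0.490 CPM. The neutrophil list summed to 300 to 1049 CPM, nearly all of it S100a8, while Ly6g averaged at most 0.374 CPM. At day 5 Ly6g was called higher (1.98) and S100a9 (-0.89), Elane (-3.09) and Mpo (-2.35) lower, while S100a8 (0.35) was not called. At day 1 S100a8 was called higher (1.37) and Mpo lower (-1.34). The part of other cell types in the results below was not tested. In bulk RNA, a smaller number of cells of one kind and less RNA per cell cannot be told apart. The files of exposed day 5 replicates 2 and 3 carry another series of library codes than the other 14, and day 5 counts are given with and without them.

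Summed over the 77 genes, the level was 3098 ± 144 CPM (SD, n = 4) in uninfected cells at day 1 and 3200 ± 194 CPM at day 5. It was 3298 ± 166 CPM in exposed cells at day 1 and 2798 ± 219 CPM at day 5. The exposed day 5 libraries ranged from 2519 to 3008 CPM, and the highest of them lay just above the lowest uninfected day 5 library, at 2955 CPM. The small subunit separated the groups. Its genes summed to 848 to 963 CPM in uninfected and 655 to 759 CPM in exposed day 5 libraries, without overlap. Large-subunit genes summed to 2083 to 2402 CPM and 1844 to 2228 CPM, and these ranges overlapped. These sums were not tested, since a score over chosen genes is not independent of the choice.

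**Figure D1:**
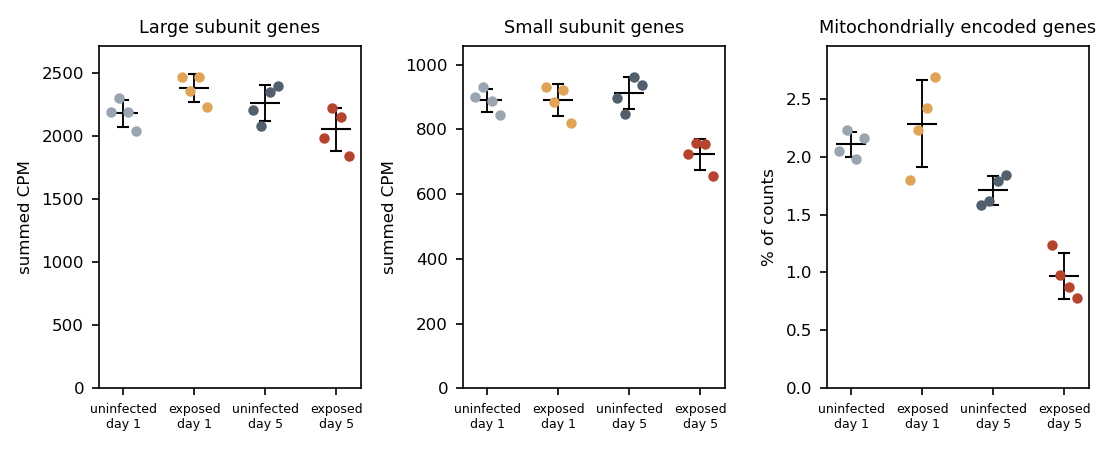
Summed CPM of the 50 large-subunit genes (left) and the 26 small-subunit genes (middle) and the percentage of counts in mitochondrially encoded genes (right), by library. Points are libraries, horizontal bars are group means with the SD (n = 4). The exposed day 5 libraries of the small subunit lie between 655 and 759, below all other libraries, and their mitochondrially encoded share lies between 0.78% and 1.24%.

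At the level of single genes the members were unequal. Per kilobase of messenger RNA, uninfected day 1 levels ran from 3.07 CPM per kb for Mrpl47 to 116 CPM per kb for Mrpl52, with a median of 24.0. Mrpl52 remained the highest in exposed cells, with 223 CPM per kb at day 1 and 245 CPM per kb at day 5, and stood at rank 3 in uninfected cells at day 5, where Mrps21 led with 115 CPM per kb. Replicates were close. The median SD of log2 CPM over members was 0.0884 in uninfected day 1, 0.106 in uninfected day 5, 0.111 in exposed day 1 and 0.179 in exposed day 5 libraries. Over all tested genes the same medians were 0.113, 0.148, 0.144 and 0.299.

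At day 1 the question is what the first day of exposure did. Of the 77 genes, 15 rose and 4 fell, against 13.4% of all tested genes called higher and 10.5% called lower, and the other 58 were not called. The share of members called higher was thus 19.5% and the share called lower 5.19%. The median log2 fold change was 0.04 over members and 0.03 over all genes. The risers were mainly of the large subunit, with 13 of 50 higher and 2 lower, while the small subunit had 2 of 26 higher and 2 lower. The difference between subunits was not tested.

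Mrpl52, a protein added to the large subunit in mitochondria, rose most. It stood at 46.5, 46.8, 50.0 and 50.2 CPM in uninfected and at 78.8, 96.5, 97.1 and 101 CPM in exposed day 1 libraries. The groups did not overlap, and the log2 fold change was 0.95 with a standard error (SE) of 0.08 (edgeR, adjusted p = 8.81e-08). Mrpl41, likewise specific to mitochondria, went from 44.7, 49.2, 51.4 and 51.5 CPM to 80.2, 84.1, 87.4 and 103 CPM. Its log2 fold change was 0.85, SE 0.16 (edgeR, adjusted p = 0.00132). Mrpl14, a protein of the subunit interface and the docking site of the assembly factor Malsu1, went from 39.1, 39.3, 47.4 and 49.4 CPM to 63.0, 63.0, 67.9 and 71.9 CPM, a log2 fold change of 0.60, SE 0.16 (edgeR, adjusted p = 0.0119). For each of these 3 genes all exposed libraries lay above all uninfected ones.

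Smaller rises were called for Mrps18c (0.49 on the log2 scale), Mrpl33 (0.46), Mrpl48 (0.43), Mrpl57 (0.43), Mrpl11 (0.40), Mrpl24 (0.38) and Mrpl13 (0.37). Mrpl11 is the base of the stalk that recruits translation factors. It stood at 53.5, 57.7, 58.3 and 60.3 CPM in uninfected and at 71.7, 74.6, 77.2 and 79.0 CPM in exposed libraries (edgeR, adjusted p = 0.00708). Its stalk partners were not called at day 1, with log2 fold changes of -0.16 for Mrpl10 and 0.01 for Mrpl12. Among the 3 relatives of bacterial protein S18, Mrps18c rose, Mrps18b (-0.05) and Mrps18a (0.06) were not called, and 23.2% of the exon bases of Mrps18c are shared on the same strand with Gm43511 in the older annotation. The 4 genes called lower were Mrps27, a pentatricopeptide repeat protein of the small subunit (-0.35), Mrpl34 (-0.25), Mrpl38 (-0.23) and Mrps5 (-0.22). Groups did not overlap in any of the 19 called genes, nor in 12 of the 58 that were not called. That is 40.3% of members, near the 39.3% of all tested genes whose groups did not overlap at day 1, and among all genes called at day 1 the share was 96.7%.

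The day 1 counts moved with the fit. A fit on the 8 day 1 libraries alone called 23 members higher and 12 lower, and with size factors of the relative-log kind (RLE) 13 were higher and 7 lower. Over all genes, the fit on day 1 libraries called 3650 higher and 3371 lower of 15858. RLE called 2096 and 2165 of 17190, and the main fit 2297 and 1800 of 17190. Without exposed replicate 3, uninfected replicate 1 or uninfected replicate 4, the higher calls among members numbered 9, 8 and 7, and the lower calls 0 in each case. Over all genes these fits called fewer too, 1922, 1767 and 1706 higher and 1363, 1301 and 1236 lower. Lower calls among members were also 0 without exposed replicate 4 or uninfected replicate 2, and 1 without exposed replicate 2 or uninfected replicate 3. Over all genes the lower calls there numbered 1220, 1426, 1426 and 1376. Mrpl52, Mrpl41, Mrpl14, Mrps18c, Mrpl11, Mrpl24 and Mrpl32 kept their calls in all 14 alternatives run for day 1, while the 4 lower genes lost theirs in 5 to 9 of them. Among the risers, Mrpl13 lost its call in 11, Mrpl27 in 9 (DESeq2 and RLE among them), Mrpl1 in 7, Mrpl30 and Mrpl57 in 6, Mrpl33 in 4 and Mrpl48 in 3. The remaining riser, Mrps33, was not among the genes followed singly through the alternatives.

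At day 5 more members were called lower than higher. Of the 77 genes, 35 fell and 8 rose, against 28.4% of all tested genes called lower and 28.6% called higher. The shares among members were 45.5% lower and 10.4% higher, and the median log2 fold change was -0.21 against 0.02 over all genes. The log2 fold change was below 0 for 51 members, against 36 at day 1. In the small subunit 14 of 26 genes fell and 1 rose (median -0.28), and in the large subunit 20 of 50 fell and 7 rose (median -0.13). The 10 small-subunit genes specific to mitochondria had 6 lower and 0 higher by edgeR (median -0.48), with 0 higher also at an unadjusted p under 0.05 and by DESeq2, and the 20 such genes of the large subunit had 5 lower and 2 higher (median 0.05). Genes with a bacterial counterpart had 8 of 16 lower in the small and 15 of 30 in the large subunit. No difference between these classes was tested. With exposed replicates 1 and 4 alone, 37 members were lower and 7 higher, beside 4906 and 4780 of 17921 genes tested in that fit. Leaving out single libraries gave 32 to 40 lower calls among members and 4550 to 5062 over all genes. Without exposed replicate 4, the library lowest in members, 13 members were higher, beside 4698 of 17598 genes tested in that fit.

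**Figure D2:**
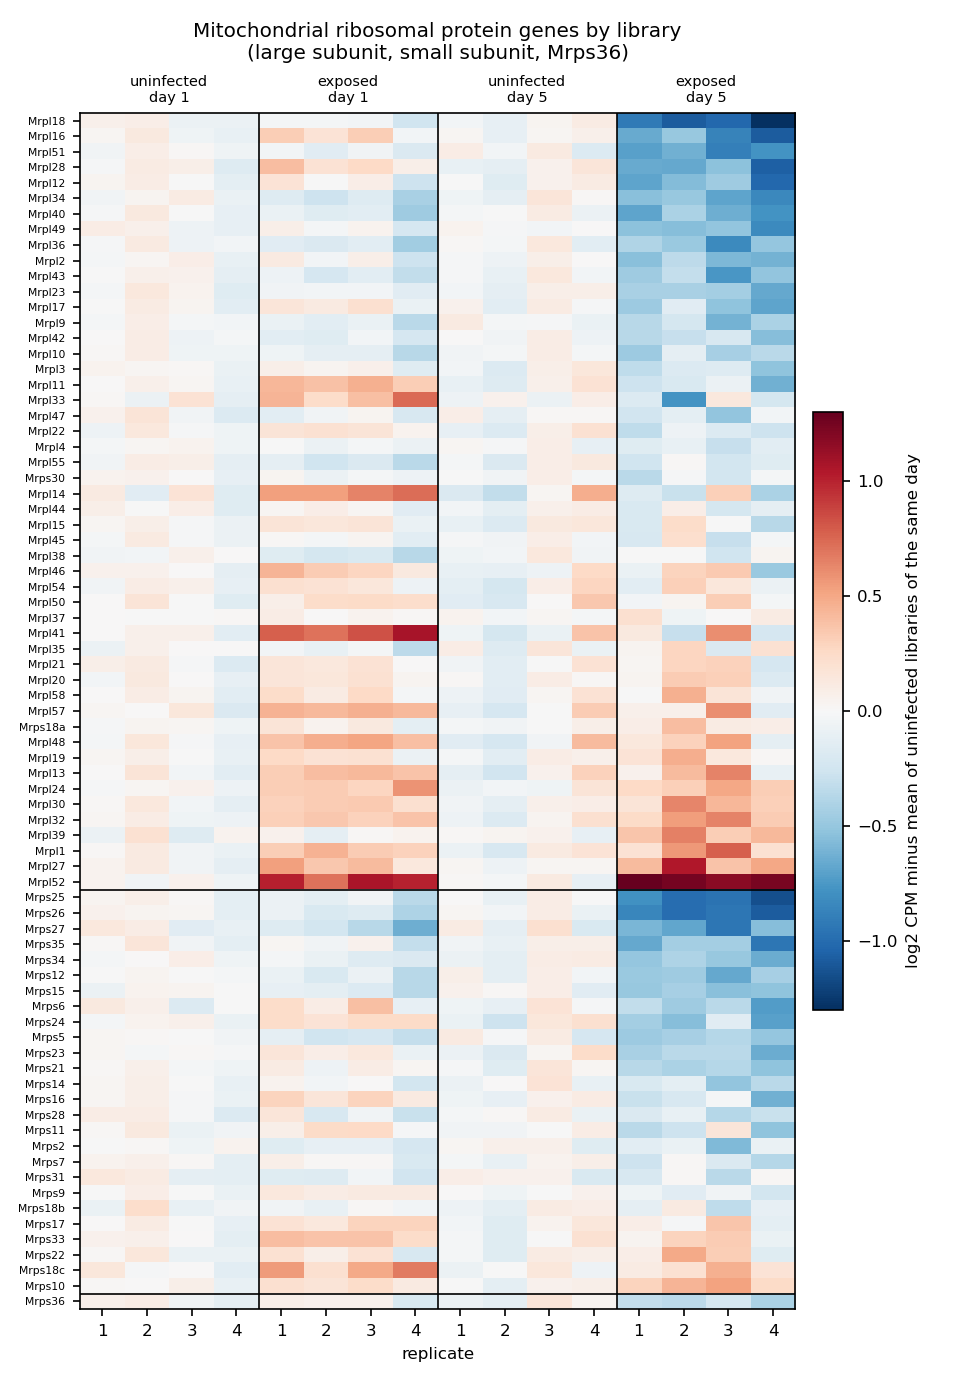
Log2 CPM of each of the 77 genes in each library, minus the mean of the 4 uninfected libraries of the same day. Rows are genes, ordered within the large subunit, the small subunit and Mrps36 by the day 5 log2 fold change, and columns are libraries by group. Blue fills much of the exposed day 5 block, where 35 genes were called lower, while Mrpl52 is red in all 8 exposed libraries.

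Among the genes that fell, Mrpl18 changed most. Its bacterial relative binds 5S ribosomal RNA. Uninfected day 5 libraries held 71.5, 75.6, 79.0 and 83.3 CPM and exposed ones 28.8, 36.6, 38.1 and 40.8 CPM, for a log2 fold change of -1.10, SE 0.10 (edgeR, adjusted p = 1.1e-08). At day 1 its mean had been 74.7 ± 4.71 CPM without and 70.4 ± 5.42 CPM with bacteria (SD, n = 4), so that the exposed day 5 libraries are the low ones among all 16.

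Mrps25 and Mrps26, small-subunit proteins specific to mitochondria, followed. Mrps25 stood at 56.4, 60.0, 60.4 and 64.5 CPM in uninfected and 27.3, 30.3, 31.0 and 34.9 CPM in exposed libraries (log2 fold change -0.97, SE 0.08; edgeR, adjusted p = 1.29e-08). Mrps26 stood at 42.6, 43.9, 45.9 and 48.3 CPM against 21.4, 22.7, 23.6 and 25.1 CPM (log2 fold change -0.96, SE 0.08; edgeR, adjusted p = 5.9e-09). In both genes every exposed day 5 library was below every other library of the series.

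In the large subunit, Mrpl16, which in bacteria lies beside the transfer RNA sites, went from 57.2, 62.7, 62.9 and 64.5 CPM to 29.2, 33.8, 39.1 and 43.9 CPM (-0.76, SE 0.11; edgeR, adjusted p = 6.44e-06). Mrpl51 (-0.75), Mrpl28 (-0.72), Mrpl34 (-0.64) and Mrpl40 (-0.62) fell by similar amounts. Mrpl12, the stalk protein that contacts elongation factors, was among the most abundant members per kilobase and went from 113, 126, 131 and 136 CPM to 62.4, 78.7, 85.2 and 91.9 CPM (-0.67, SE 0.11; edgeR, adjusted p = 3.89e-05). The other stalk proteins also fell, Mrpl10 by 0.34 and Mrpl11 by 0.29 on the log2 scale. Mrpl11 was the member called higher at day 1 and lower at day 5. Its day 5 call was lost without exposed replicate 4 (-0.19), without uninfected replicate 4 (-0.22) and in a fit on the day 5 libraries alone.

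In the small subunit Mrps12, which forms part of the decoding site, went from 27.1, 29.0, 31.2 and 31.6 CPM to 18.7, 21.2, 21.5 and 22.1 CPM (-0.51, SE 0.08; edgeR, adjusted p = 1.89e-05). Mrps27 fell by 0.69 and Mrps24 by 0.46 on the log2 scale, and the Mrps24 groups overlapped. In Mrps24, 15.4% of exon bases are shared with Urgcp on the same strand in the older annotation. The 35 called genes showed no overlap between groups in 29 cases. The exceptions were Mrpl3, Mrpl4, Mrpl11, Mrpl22, Mrps16 and Mrps24. Of all genes called lower at day 5, groups did not overlap in 83.6%, and over all members, called or not, the share was 50.6% against 46.6% of all tested genes. Mrps36, the dehydrogenase subunit, fell as well, from 24.9, 25.8, 27.9 and 30.4 CPM to 20.4, 21.4, 21.8 and 23.3 CPM (-0.33; edgeR, adjusted p = 0.00283).

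**Figure D3:**
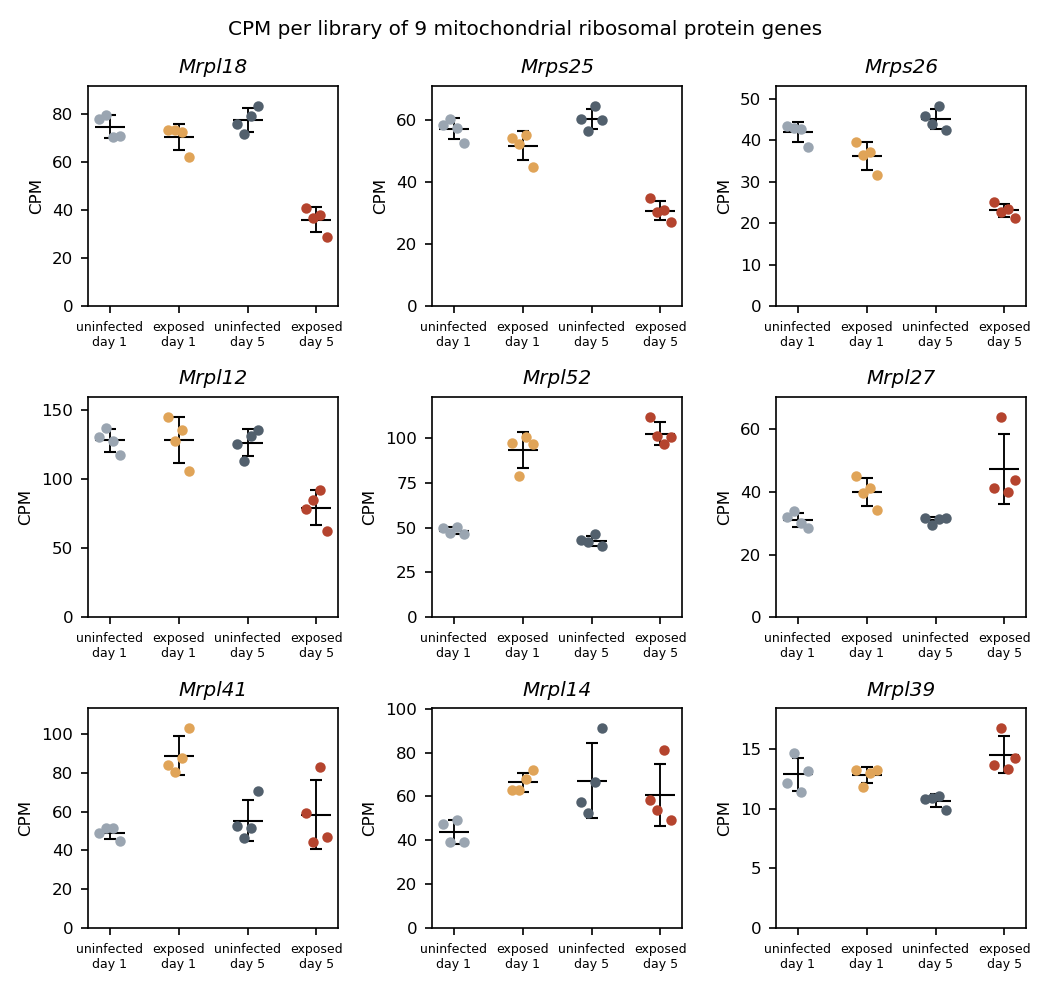
CPM per library of 9 genes in the 4 groups. Points are libraries, and horizontal bars with whiskers are the mean and SD (n = 4). Mrpl18, Mrps25, Mrps26 and Mrpl12 are lowest in all exposed day 5 libraries, Mrpl52 is high at both days of exposure, and Mrpl41 and Mrpl14 are above uninfected cells in all exposed libraries at day 1, while their day 5 groups overlap.

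The 8 genes that rose at day 5 included 7 of the large subunit. Mrpl52 stood at 39.7, 41.8, 43.2 and 46.3 CPM in uninfected and 96.5, 101, 101 and 112 CPM in exposed libraries (log2 fold change 1.26, SE 0.08; edgeR, adjusted p = 1.96e-10). Mrpl27, whose bacterial relative reaches the peptidyl transferase centre, stood at 29.6 to 31.6 CPM in uninfected and 40.1, 41.3, 43.9 and 63.8 CPM in exposed libraries (0.61, SE 0.12; edgeR, adjusted p = 0.000245). The value of 63.8 CPM belongs to exposed replicate 2, and the other 3 exposed libraries also lay above all uninfected ones.

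Mrpl1, a protein of the stalk through which transfer RNA leaves (0.45), Mrpl32, a substrate of the m-AAA protease (0.44), Mrpl30 (0.40) and Mrpl24 (0.35) were called higher at day 1 as well, with the day 1 calls of Mrpl1 and Mrpl30 lost in 7 and 6 of 14 alternatives. The day 5 call for Mrpl1 was lost with exposed replicates 1 and 4 alone (0.19, adjusted p = 0.111, edgeR). Mrpl39, a large-subunit protein related to threonyl-tRNA synthetase, was called at day 5 and not at day 1, from 9.88, 10.8, 10.9 and 11.1 CPM to 13.3, 13.7, 14.2 and 16.7 CPM (0.44; edgeR, adjusted p = 0.000559). Its day 1 log2 fold change was -0.01. Mrps10 (0.38) was the small-subunit gene that rose. Among the 8, the groups did not overlap, as in 76.0% of all genes called higher at day 5.

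Put together over both days, 6 genes were higher at day 1 and at day 5 (Mrpl1, Mrpl24, Mrpl27, Mrpl30, Mrpl32 and Mrpl52), 3 were lower at both (Mrpl34, Mrps27 and Mrps5), 31 were called lower at day 5 alone, 2 higher at day 5 alone, and 25 at neither day. The day 1 calls of Mrpl1, Mrpl27 and Mrpl30 and of the 3 lower genes depended on the fit, as given above. Mrpl58, the peptidyl-tRNA hydrolase that rescues stalled ribosomes, was among these 25 (0.15 and 0.16). So were Mrps30 (-0.03 and -0.15), Mrps18a and Mrps18b. The comparisons at day 1 and at day 5 share no library. Across the 77 genes their log2 fold changes had a Spearman correlation of 0.585, and across all 17190 genes of 0.45, given as a description, since genes are not independent.

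**Figure D4:**
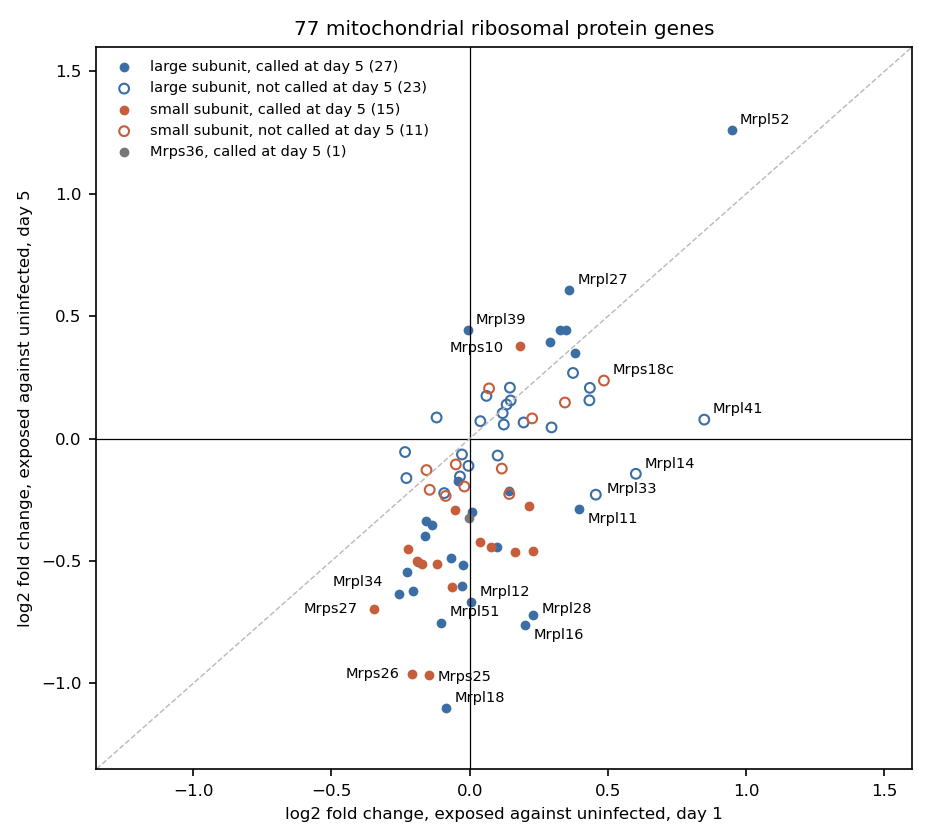
Log2 fold change of exposed against uninfected cells at day 1 (horizontal axis) and day 5 (vertical axis) for the 77 genes, with filled points for genes called at day 5. The dashed line marks equal change. Mrpl52 lies at 0.95 and 1.26, Mrpl18 at -0.09 and -1.10, and most filled points lie below 0 on the vertical axis near 0 on the horizontal one.

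The change of the exposure effect between the days was tested as an interaction. It was called negative for 29 members and called positive for 2, where 19.5% of all tested genes were called lower and 16.4% higher. Called or not, the value was below 0 for 60 members, against 52.6% of all tested genes. The median was -0.24 over members and -0.04 over all genes. The largest negative values were those of Mrpl18 (-1.01, SE 0.13; edgeR, adjusted p = 1.34e-05), Mrpl16 (-0.96), Mrpl28 (-0.95), Mrps25 (-0.82) and Mrpl41 (-0.77). For Mrpl41 the value reflects a rise at day 1 and a level at day 5 (44.2, 46.9, 59.5 and 82.8 CPM in exposed against 46.6, 51.4, 52.5 and 70.6 CPM in uninfected libraries) where the groups overlapped. The 2 values called positive belonged to Mrpl39 (0.45; edgeR, adjusted p = 0.0137) and Mrpl52 (0.31; edgeR, adjusted p = 0.0391). The Mrpl52 value lost its call in 10 of 22 alternatives, and higher calls numbered 1 without exposed day 1 replicate 2, exposed day 5 replicate 1 or 4, uninfected day 1 replicate 1, 3 or 4, or uninfected day 5 replicate 1, 2 or 4. Over all genes these fits called 2454 to 2971 higher, against 2826 in the main fit. With exposed day 5 replicates 1 and 4 alone, 39 members were called negative and 2 positive. Over all genes that fit called 3859 negative and 3154 positive of 17921, against 3347 and 2826 of 17190 in the main fit.

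Time in culture without bacteria moved few members. Between uninfected day 5 and day 1, 3 genes were higher and 3 lower, against 10.8% and 8.91% of all tested genes. Mrpl14 was higher at day 5 (52.7, 57.7, 66.8 and 91.2 CPM against 39.1 to 49.4 CPM, 0.61; edgeR, adjusted p = 0.0123), and this call was lost without uninfected day 5 replicate 4 (0.43, adjusted p = 0.0512). Mrps24 (0.37) and Mrpl45 (0.28), a protein near the exit tunnel that contacts the inner membrane, were also higher, and Mrps5 (-0.31), Mrpl37 (-0.25) and Mrpl38 (-0.24) lower. Of 14 alternatives, the Mrpl45 call was lost in 10 (DESeq2 and RLE among them), that of Mrpl38 in 9, that of Mrps24 in 4 and that of Mrpl37 in 1. A fit on the 8 uninfected libraries alone called 14 members higher and 12 lower, and RLE scaling 2 higher and 5 lower. Over all genes, the fit on uninfected libraries called 3386 higher and 3038 lower of 15777. RLE called 1693 and 1670 of 17190, and the main fit 1852 and 1532 of 17190. Higher calls among members numbered 1 without uninfected day 1 replicate 1, uninfected day 1 replicate 4 or uninfected day 5 replicate 3, and 0 without uninfected day 5 replicate 4. Over all genes the higher calls of these fits also fell, to 1310, 1274, 1357 and 1227.

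Within exposed cells, day 5 was called lower than day 1 for 42 members and higher for 2, against 25.2% and 25.6% of all tested genes. The log2 fold change was below 0 for 61 members, against 49.6% of all tested genes. The small subunit had 19 of 26 genes lower and 0 higher (0 also at an unadjusted p under 0.05 and by DESeq2), the large subunit 22 of 50 lower and 2 higher. Mrpl18 (-0.96), Mrpl16 (-0.81), Mrps25 (-0.74), Mrpl28 (-0.72) and Mrpl51 (-0.70) led the decrease, and Mrpl32 (0.36) and Mrpl45 (0.24) were higher. The Mrpl45 call was lost in 9 of 15 alternatives. The 2 higher calls became 0 with exposed day 5 replicates 1 and 4 alone, 1 without exposed day 1 replicate 1, 2 or 3 or exposed day 5 replicate 2, and 4 without exposed day 5 replicate 1. Over all genes these fits called 3968 to 4462 higher, against 4406 in the main fit. The exposed days share libraries with both exposure comparisons, so this comparison adds no independent evidence.

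Several members start back to back with another gene, and the neighbour's values show how far the pair moved alike. By RefSeq starts on GRCm38.p6, 23 of the 68 members with a window (33.8%) had an opposite start within 500 bases upstream, against 10.9% of all genes and 17.7% of tested genes with a window. In 5 pairs the member and its neighbour both fell at day 5, where 28.4% of all tested genes were called lower: Mrpl18 with Tcp1, Mrpl40 with Hira, Mrpl43 with Twnk, Mrps12 with Sars2 and Mrps27 with Ptcd2. In 1 pair both rose, Mrpl30 with Mitd1. In 1 pair the directions were opposite, Mrpl27 with Eme1. For 4 members that fell (Mrpl2, Mrpl49, Mrps26 and Mrps5) and 1 that rose (Mrpl32) the neighbour was not called. For 7 members that were not called the neighbour was, higher in 4 cases and lower in 3, and for the other 4 neither was called. Pairs are named here after their values were seen.

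The bases between the starts of 4 pairs whose partner also serves the mitochondrion are shown, since both genes of a pair share this stretch. They run 5′ to 3′ on the strand of the first gene, with the same motifs in capitals. The first pair joins 2 members, and in the others the partner is a mitochondrial seryl-tRNA synthetase, the helicase of mitochondrial DNA, and a pentatricopeptide repeat protein. A further pair, Mrpl47 with the respiratory complex I gene Ndufb5, is not printed because its starts lie 308 bases apart. There the member was not called at day 5 (-0.22), and Ndufb5 fell (-0.50; edgeR, adjusted p = 4.1e-05).
Mrps11 to Mrpl46 (chr7:78783090-78783130, plus strand): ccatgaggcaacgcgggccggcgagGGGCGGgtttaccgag
Mrps12 to Sars2 (chr7:28741822-28741967, minus strand): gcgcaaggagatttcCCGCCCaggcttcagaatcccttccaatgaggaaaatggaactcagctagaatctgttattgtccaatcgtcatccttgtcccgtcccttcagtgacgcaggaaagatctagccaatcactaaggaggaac
Mrpl43 to Twnk (chr19:45006443-45006557, minus strand): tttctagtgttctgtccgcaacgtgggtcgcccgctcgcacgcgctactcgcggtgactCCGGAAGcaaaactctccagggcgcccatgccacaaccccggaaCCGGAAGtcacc
Mrps27 to Ptcd2 (chr13:99344679-99344785, plus strand): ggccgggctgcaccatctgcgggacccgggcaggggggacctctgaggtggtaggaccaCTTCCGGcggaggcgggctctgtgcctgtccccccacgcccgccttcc

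The starts of Mrps11 and Mrpl46 lie 42 bases apart, and neither gene was called at day 5 (-0.23 and 0.05). Mrps12 and Sars2, 147 bases apart, had log2 fold changes of -0.51 and -0.30 at day 5. Mrpl43 and Twnk, 116 bases apart and with ETS sites at 2 places between them, had -0.50 and -0.56. Mrps27 and Ptcd2, 108 bases apart with an ETS site between them, had -0.69 and -0.51. Mrpl43 itself went from 93.6, 97.7, 99.3 and 110 CPM to 59.3, 70.1, 72.5 and 80.8 CPM. By contrast, Mrpl30 and Mitd1, 66 bases apart, both rose but by unlike amounts, 0.40 and 1.40 at day 5 and 0.29 and 1.50 at day 1. Mrpl27 (0.61) and the DNA repair gene Eme1 (-1.54) start 48 bases apart, and Mrpl57 (0.16, not called) and the mitotic gene Ska3 (-2.18) 76 bases apart.

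The genes around the mitochondrial ribosome were read in the same comparisons, from lists that name its other proteins and the machinery it works with. A count of 0 given below for a list by edgeR was also 0 at an unadjusted p under 0.05 and by DESeq2 unless stated. The counts are to be read against the 28.4% of all tested genes called lower and the 28.6% called higher at day 5. Of 5 ribosomal proteins under other symbols, 4 fell at day 5, Dap3 (-0.32), Ptcd3 (-0.33), Aurkaip1 (-0.30) and Gadd45gip1 (-0.30). The groups overlapped for Aurkaip1 and Gadd45gip1, and the Gadd45gip1 call was lost in 3 of 15 alternatives. The remaining one of the 5, Chchd1, named after its values were seen, rose at day 1 (0.76) and day 5 (0.48). Of 27 assembly factors, 11 fell (40.7%) and 4 rose (14.8%) at day 5 (median -0.13). Rbfa, which matures the small subunit, fell by 0.81 on the log2 scale, the assembly protein Mpv17l2 by 0.66 and the ribosomal RNA methyltransferase Mrm2 by 0.61, while Nme6 rose (0.75). Nme6 was lower between uninfected days (-0.49) and not called between exposed days (0.05).

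Of 16 translation factors, 8 fell (50.0%) and 2 rose (12.5%) at day 5 (median -0.18), beside 28.4% and 28.6% of all tested genes. The elongation factors Gfm1 (-0.60) and Tsfm (-0.57) fell, and Gfm2, which recycles ribosomes, rose (0.54), as did Slirp, a stabiliser of mitochondrial messenger RNA (0.48). All 12 called among 17 mitochondrial aminoacyl-tRNA synthetases were lower (median -0.37), with 1 higher at an unadjusted p under 0.05 and 1 higher by DESeq2. Those with low p-values included Cars2 (-0.97), Vars2 (-1.02) and Mars2 (-0.78). The transcription and replication list had 4 of 11 lower (36.4%, median -0.11), with Twnk (-0.56), Mgme1 (-0.65) and Tfb2m (-0.43) among them, and 2 higher, with Ssbp1 (0.48). The RNA processing list had 6 of 16 lower (37.5%, median 0.05), with Elac2 (-0.54) and Rexo2 (-0.64), and 3 higher, with Fastkd1 (0.94) and Pnpt1 (0.86). Between exposed days Fastkd1 (0.15) and Pnpt1 (0.04) were not called. Between uninfected days both were lower (-0.55 and -0.30), and this Pnpt1 call was lost in 5 of 14 alternatives.

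Among 10 regulators of mitochondrial biogenesis, 7 fell and 2 rose at day 5. Myc, a factor that promotes ribosome and mitochondrial gene expression, stood at 137 to 143 CPM in uninfected and 42.0 to 56.2 CPM in exposed day 5 libraries (-1.54, SE 0.09; edgeR, adjusted p = 4.46e-11). From day 1 to day 5 its mean went from 92.1 to 140 CPM in uninfected cells (0.61, called higher). In exposed cells it went from 72.5 to 48.2 CPM (-0.59, called lower). The coactivator Ppargc1b (-0.88) and the ETS factor Gabpa (-0.65) fell, and Gabpb1, the partner subunit of Gabpa, rose (0.43). At day 1, 6 of these 10 were lower and 0 higher by edgeR, beside 10.5% and 13.4% of all tested genes. Myc (-0.34), Ppargc1b (-0.37) and Gabpa (-0.30) were among the 6. Between uninfected days, 6 of the 10 were lower and 1 higher, beside 8.91% and 10.8% of all tested genes. Whether these regulators act on the ribosomal protein genes was not tested.

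The mitochondrial transcripts that these ribosomes translate, and the 2 ribosomal RNAs they contain, had log2 fold changes below 0 at day 5. This held for all 15 mitochondrially encoded genes tested, of which 12 fell, 0 rose and 3 were not called (median -0.96). Mt-Nd1 changed by -1.23, mt-Cytb by -1.21, mt-Nd4 by -0.98 and the large ribosomal RNA mt-Rnr2 by -0.96. Mitochondrially encoded genes took 0.78% to 1.24% of counts in exposed and 1.58% to 1.84% in uninfected day 5 libraries, and 1.80% to 2.69% and 1.98% to 2.23% at day 1. At day 1, 2 of the 15 rose, mt-Rnr2 (0.42) and mt-Rnr1 (0.40), a share of 13.3% beside 13.4% of all tested genes. The mt-Rnr2 call was lost in 1 of 14 alternatives, without exposed day 1 replicate 4 (0.34). Selection of polyadenylated RNA bears on mitochondrial transcripts, whose tails are short, and its part was not tested.

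Proteins of the cytosolic ribosome, the other ribosome of the cell, gave a comparison of like kind. Of their 74 genes, 37 rose and 0 fell at day 1 by edgeR (median 0.32), where mitochondrial ribosomal protein genes had 15 of 77 higher (median 0.04) and all tested genes 13.4% higher and 10.5% lower. At day 5, 30 fell and 6 rose (median -0.20), close in number to the mitochondrial set (35 lower and 8 higher, median -0.21), beside 28.4% lower and 28.6% higher over all tested genes. The change between the days was called negative for 44 and called positive for 0 cytosolic genes, beside 19.5% and 16.4% of all tested genes. Called or not, its value was below 0 for all 74, against 52.6% of all tested genes. Between uninfected days, 19 of the 74 were higher and 0 lower (25.7% higher, beside 10.8% of all tested genes), where 3 of the 77 mitochondrial ones were higher. No test of the difference between the 2 sets was made.

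**Figure D5:**
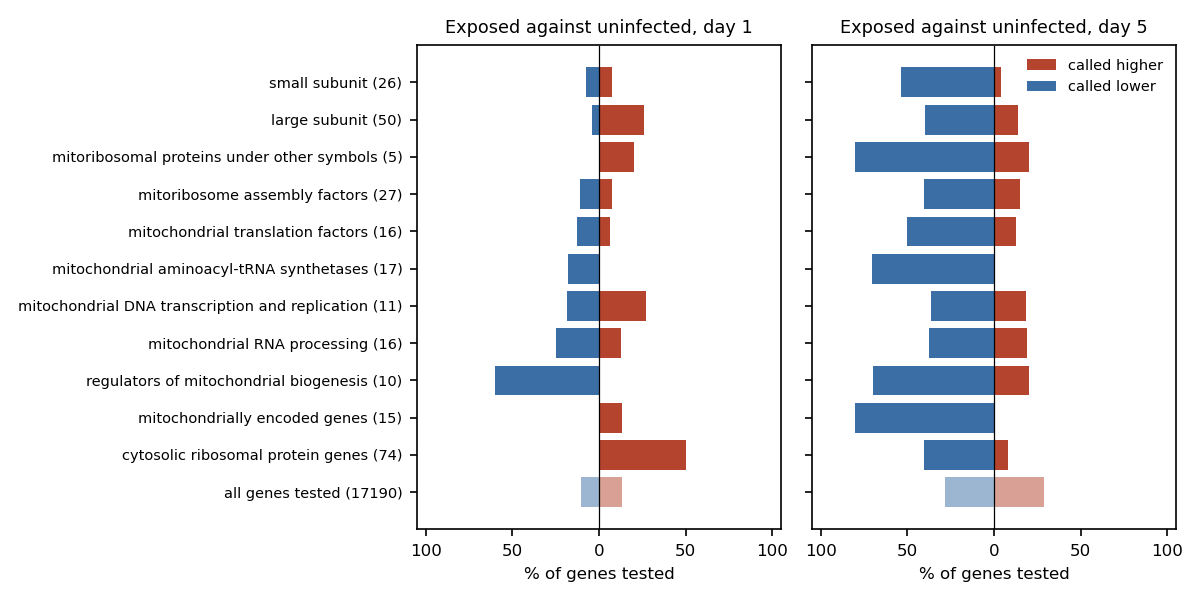
Percentage of tested genes called higher (to the right, red) and lower (to the left, blue) in each list at day 1 and day 5, with the number tested in brackets and all 17190 tested genes as the bottom bar. At day 5 the blue bars of the small subunit (53.8%) and the large subunit (40.0%) exceed that of all genes (28.4%), and at day 1 the longest red bar is that of cytosolic ribosomal protein genes (50.0%).

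Length of the messenger RNA ran weakly with the response at day 1. The 15 members called higher at day 1 had a median length of 1.11 kb, the 58 not called 1.32 kb and the 4 lower ones 1.63 kb. The Spearman correlation of length with the day 1 log2 fold change was -0.14 over the 77 members and -0.216 over 12979 tested genes with a length. At day 5 it was -0.00715 and 0.0737. The part of length in the day 1 calls was not tested. Processed copies held little signal, since Mrpl23-ps1 reached at most 0.571 CPM and Mrpl48-ps 0.162 CPM in any library.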

How the data were processed

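Polyadenylated RNA of 16 libraries of MPI-2 cells was sequenced, 4 per group. The submitters' processing notes name STAR and GRCm39 but neither a version nor an annotation release. For every library the authors deposited raw counts by gene, which the file names give as reverse-stranded. The values are whole, and library totals run from 46154875 to 81995629, so that 3 counts over all libraries correspond to 0.00275 CPM. Groups followed the labels. Symbols came from GENCODE M21, an older assembly, for 52083 of 55359 genes, and the rest held 0.449% of counts. Promoter windows are RefSeq's on GRCm38.p6.

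Genes passing edgeR's filterByExpr (17190) were scaled by TMM and fitted with 1 robust quasi-likelihood model over 16 libraries (edgeR 4.0.16, R 4.3.3), with no replicate block and a common biological coefficient of variation of 0.149. Tests were two-sided with Benjamini-Hochberg adjustment, called at 0.05, and SEs are the log2 fold change over the root of F. The procedure was tested on simulated data. The members and gene lists were chosen with earlier results of these data known. Genes named are the 10 higher and 10 lower called members with the largest change in each exposure comparison, 5 each way in the other comparisons, 10 members named for their role or their symbol whatever their values (the S18 relatives, Mrps30, Mrps36, the stalk proteins, Mrps12 and Mrpl58), and from each other list the 4 genes with the smallest p at day 5. Members outside this rule are named where a short count or the overlap of groups calls for it, and the lists of called genes were then seen. Lists and classes got no test, and are described by counts and medians. The alternatives comprised each library left out, exposed day 5 replicates 1 and 4 alone, fits on the groups compared, a replicate block, scaling by RLE, DESeq2 1.42.0, and 2 other filters (1 read in all, or 1 CPM in 4 libraries). Figures were drawn with matplotlib 3.10.9.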

Additional observations from a re-analysis of the deposited data

Results flagged for a closer look

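For 18 of the named members the test of the change of the exposure effect between day 1 and day 5 was called by edgeR, as day 5 minus day 1 on the log2 scale. The change was negative where the gene fell at day 5 with little change at day 1: Mrpl18 (-1.01), Mrps25 (-0.82), Mrps26 (-0.75), Mrpl51 (-0.65), Mrpl12 (-0.68), Mrpl40 (-0.41), Mrps36 (-0.32) and Mrps12 (-0.34). It was negative as well for Mrpl16 (-0.96), Mrpl28 (-0.95) and Mrps24 (-0.69), with positive day 1 values that were not called (0.20, 0.23 and 0.23), and for Mrpl34 (-0.38), lower on both days. Mrpl41 (-0.77), Mrpl14 (-0.74), Mrpl33 (-0.69) and Mrpl11 (-0.68) had risen at day 1. The change was positive for Mrpl39 (0.45) and Mrpl52 (0.31). Of 22 alternatives, the call was lost in 12 for Mrps36 (DESeq2 and RLE among them), 10 for Mrpl52, 8 for Mrpl34, 6 for Mrps12 and 1 for Mrpl40.

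In 14 of 152 pairs of a named member and a group, 1 library stood apart from the other 3, beyond what is met by chance in about 1 of 20 groups, and chance alone would thus give some of these. Among exposed day 5 libraries, replicate 2 stood at 63.8 CPM for Mrpl27 and 48.8 CPM for Mrps18a, above the others, and replicate 3 at 28.8 CPM for Mrpl38, below them. Among exposed day 1 libraries, replicate 4 stood at 33.7 CPM for Mrpl24, above, and at 62.2 CPM for Mrpl18 and 22.7 CPM for Mrps36, below, and replicate 2 at 31.1 CPM for Mrpl1, above, and 41.1 CPM for Mrps24, below. Among uninfected day 5 libraries, replicate 3 stood at 38.0 CPM for Mrpl38 and 73.6 CPM for Mrpl10, replicate 4 at 29.1 CPM for Mrpl24, all above, and replicate 2 at 29.6 CPM for Mrpl27, below. In uninfected day 1 libraries, replicate 2 stood at 26.1 CPM for Mrps18b, above, and replicate 4 at 38.4 CPM for Mrps26, below.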

How the results depend on the processing

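No direction turned under any alternative run for a called member or list gene named. The counts of members called lower at day 5 (35), called negative for the change between days (29) and called lower in exposed cells between days (42) stayed within 1.5 times their value under all alternatives. The labels do not say whether replicate numbers pair the libraries. Correlations of deviations from group means between same-numbered libraries of different groups lay between -0.15 and 0.15, and 3 of 24 exceeded 0.1. Differently numbered libraries reached 0.30 (exposed day 1 replicate 4 with exposed day 5 replicate 3) and -0.35 (exposed day 1 replicate 4 with exposed day 5 replicate 2). Such correlations cannot decide whether cultures were paired. With the replicate block, 14 members were higher and 4 lower at day 1, and 8 and 36 at day 5. Under a fit on the groups compared, day 1 gave 23 higher and 12 lower, uninfected days 14 higher and 12 lower, and exposed days 1 higher. Calls over all genes also rose under this fit at day 1 and between uninfected days, as given above. DESeq2 and RLE size factors each gave 7 members lower at day 1 and 5 lower between uninfected days. With no filter beyond 1 read, 1 was lower at day 1, 1 higher for the change between days, 1 lower between uninfected days and 1 higher between exposed days. A filter of 1 CPM in 4 libraries gave 5 lower between uninfected days and 6 higher between exposed days, and exposed day 5 replicates 1 and 4 alone gave 0 higher between exposed days. Leaving out 1 library gave 7 to 13 higher and 0 to 4 lower at day 1, 8 to 13 higher at day 5, 1 to 3 higher for the change between days, 0 to 3 higher between uninfected days and 1 to 4 higher between exposed days. Over all genes it gave 1706 to 2042 higher and 1220 to 1426 lower at day 1. At day 5 it gave 4594 to 5043 higher, and for the change between days 2454 to 3450. Between uninfected days it gave 1227 to 1727 higher, and between exposed days 3968 to 4549. Of the values of named genes under alternatives, 108 of the day 1 comparison lost a call and 15 gained one, against 7 and 14 at day 5. The cause of these moves was not tested, beyond the smaller number of libraries in fits that leave some out. The 77 members were the same number with CPM of plain library totals.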
